A study of Mus musculus with 6 samples.

Results

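The basic helix-loop-helix (bHLH) factors described here are Sim1, Sim2, Hand1, Hand2, Twist1, Twist2, Tcf15, Tcf21 and Msc, transcription factors that build mesodermal and neural tissues in the embryo. These 9 symbols were looked up in the deposited tables, of which the first holds 16819 symbols and the second 17076 entries. The first table, on Ring-deficient and wild-type cells, listed 5 of them (Sim1, Sim2, Twist1, Twist2 and Tcf15). The second table, on cells with an altered beta-catenin gene, listed 5 as well (Sim1, Sim2, Twist1, Tcf15 and Hand2). Both tables listed 4, either table listed 6, and 3 (Hand1, Tcf21 and Msc) had no entry in either. Each listed factor had 1 entry.

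Messenger RNA was sequenced from Lgr5-GFP+ cells, the cycling stem cells at the base of the small-intestinal crypt, sorted from C57BL/6 mice that had received 3 tamoxifen injections and were killed at 6 days. The Lgr5Gfp-CreERT2 strain was common to every group, so the tamoxifen-activated Cre was made from the same Lgr5 locus as the reporter used in the sort. RingKO cells (2 libraries) came from Lgr5Gfp-CreERT2 Ring1a-/- Ring1bf/f mice, and WT cells (2 libraries) from mice with Lgr5Gfp-CreERT2 alone. Bcat_RingKO cells (1 library) came from Lgr5Gfp-CreERT2-Ctnnb1-ex3 Ring1a-/- Ring1bf/f mice, and Bcat cells (1 library) from Lgr5Gfp-CreERT2-Ctnnb1-ex3 mice, which the labels' genotype field gives as WT. No group carried Ring1a-/- alone, so the effects of losing Ring1a and Ring1b cannot be told apart. The study asked what part Polycomb repressive complex 1 (PRC1) plays in intestinal homeostasis.

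A bHLH factor binds DNA as a dimer, through a basic region, at short palindromes called E-boxes. Twist, Hand, Tcf15, Tcf21 and Msc proteins pair mainly with the widely expressed E proteins, which Id proteins hold back from DNA, while the Sim proteins carry an added PAS domain and pair with Arnt proteins. PRC1, whose catalytic subunits are encoded by Ring1 (Ring1a) and Rnf2 (Ring1b), attaches ubiquitin to histones at silent developmental genes, and the promoters of many such factors are among its known targets in embryonic stem cells.

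Recovered reads came to 2911422 and 2651201 in RingKO libraries A and B, 6757458 and 6291604 in WT libraries A and B, 4470853 in Bcat_RingKO and 922153 in Bcat. The letters A and B are arbitrary. Ring1 had 9 and 11 reads in RingKO, against 484 and 363 reads in WT, and 43 reads in Bcat_RingKO, against 24 in the shallower Bcat library. The normalized ratio of Ring1 in that pair was 0.358 with a counting interval, at 95%, of 0.213 to 0.617. Rnf2 had a deposited log2 fold change of 0.16 (adjusted p = 1 in the authors' deposited table), and in the beta-catenin pair it had 546 reads in Bcat_RingKO and 78 in Bcat, a normalized ratio of 1.4 (1.1 to 1.8), or 1.21 (0.95 to 1.55) after scaling by trimmed means (TMM). The Rnf2 ratio in that pair was thus not below 1, and counts over the whole transcript do not check a floxed allele. Ctnnb1 had 76 reads in Bcat_RingKO and 14 in Bcat, which does not check its altered allele either. Summed normalized reads of 7 epithelial markers were 41300 and 45600 in RingKO, 42800 and 45000 in WT, 7720 in Bcat_RingKO and 13600 in Bcat. Summed normalized reads of 7 Lgr5 stem cell markers were 26100 and 12200 in RingKO, 32900 and 38600 in WT, 6660 in Bcat_RingKO and 9280 in Bcat. Olfm4 alone made up 13500 and 4500 in RingKO, 19200 and 23500 in WT, 1130 in Bcat_RingKO and 4680 in Bcat. In the beta-catenin pair the counting interval of the ratio was above 1 for 3 of these 7 markers and below 1 for 1 (Olfm4).

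Below, "rose" and "fell" mean that the adjusted p that the authors deposited was under 0.05 (the submitters' processing notes list DESeq, without saying for which step). The labels do not say that libraries came from separate animals, so p-values measure only the spread between libraries, which may be technical. A normalized read is a recovered read divided by the size factor of its library, and RPM are the reads of a gene per 1000000 recovered reads of its library. Intervals cover counting error only. In bulk RNA a change in the number of cells of a type and a change in RNA per cell cannot be told apart. The Bcat pair had 1 library per group and therefore no replicate check and no test, and there a change means at least 2-fold in the deposited value.

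Sim2, Tcf15 and Twist1 rose in Ring-deficient stem cells and also had reads in Ring-deficient cells with altered beta-catenin, while the other listed members were at 2 reads or fewer in every library. Among the 5 factors of the first table, 3 rose, against 3.14% of all 18376 entries. None fell in the authors' test, against 1.76% of all entries, and 0 fell by edgeR, DESeq2 or limma-trend. A fall could not have been detected, because each of the 5 had 3 reads or fewer over both WT libraries. With its read filter edgeR tested only the 3 that rose, as did DESeq2 and limma-trend. At an unadjusted p under 0.05 the count was 3, the genes that rose. In the same 3 factors both RingKO libraries were above both WT libraries, which held for 18.0% of all entries. The median deposited log2 fold change of the 5 was 4.22, against 0.02 over all entries. That median carries the authors' addition of 1 read, because an entry with no reads in any library would stand at 1.09.

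**Figure D1:**
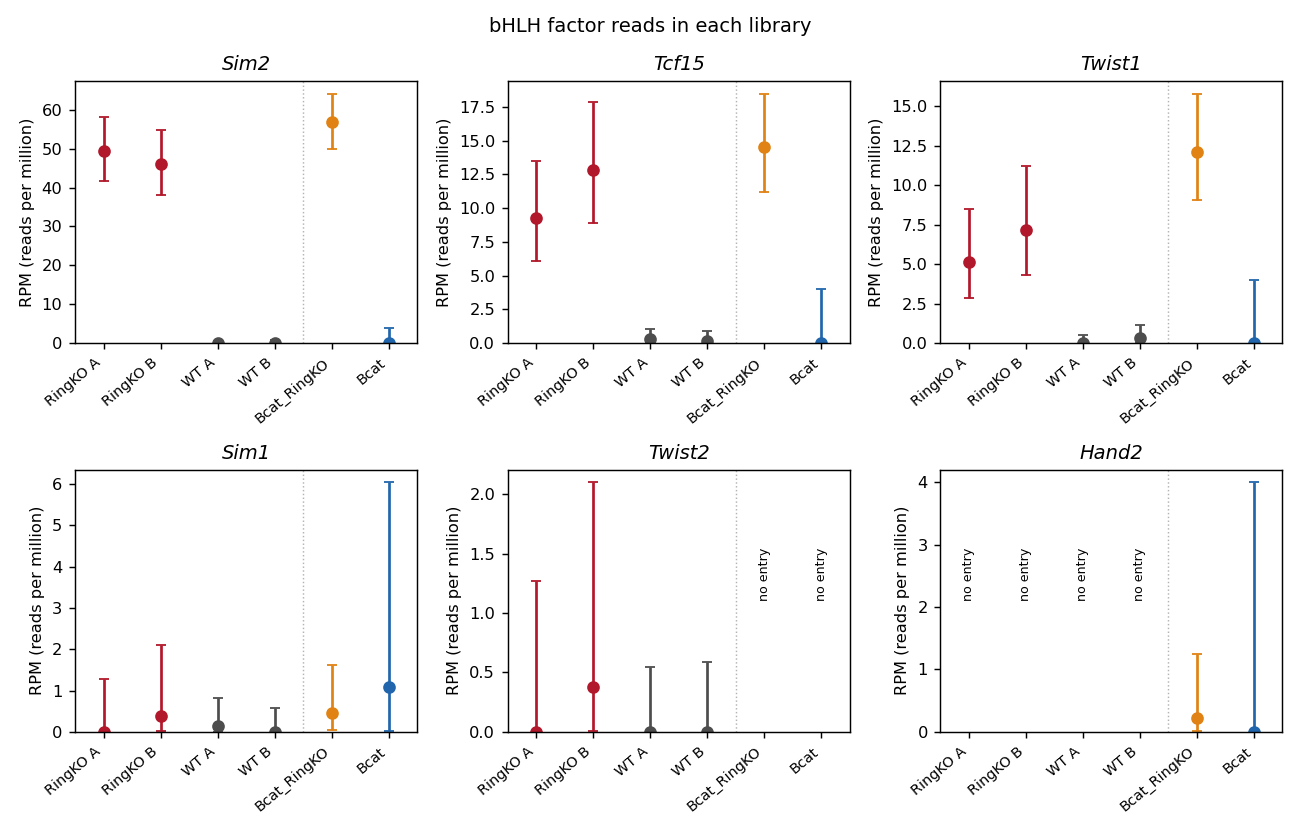
RPM (y axis, a scale of its own in each panel) of the 6 bHLH factors that have an entry, in RingKO A and B, WT A and B, Bcat_RingKO and Bcat. Points are single libraries and bars are exact 95% Poisson intervals. Sim2, Tcf15 and Twist1 stand at 5.15 or more in the Ring-deficient libraries and at 0.318 or less in WT and Bcat, while Sim1, Twist2 and Hand2 rest on 0 to 2 reads.

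Sim2 encodes a bHLH-PAS repressor of the developing midline, muscle and brain. It had 144 and 122 reads in RingKO, against 0 and 1 read in WT. The WT libraries were the deeper ones, and the groups did not overlap: Sim2 made up 49.5 and 46.0 RPM in RingKO and 0 and 0.159 in WT. In the authors' deposited table its mean was 191 in RingKO and 1.02 in WT, a log2 fold change of 7.55 (adjusted p = 2.12e-39). The ratio of the recovered normalized reads was 567 with a 95% counting interval of 101 to 22500, since the WT side rests on 1 read. By edgeR's quasi-likelihood test the log2 fold change was 8.89 ± 0.43 (SE derived from the F statistic; adjusted p = 6.54e-05). DESeq2 gave 9.31 with a wider SE of 1.47.

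With altered beta-catenin, Sim2 had 254 reads in Bcat_RingKO and 0 in Bcat. That is 56.8 RPM in Bcat_RingKO, against 0 in Bcat, with an exact upper 95% limit of 3.69 reads for that 0. By the lower 95% counting limit of its ratio, Sim2 was at least 13.7-fold higher in Bcat_RingKO, or at least 11.8-fold with TMM. With the 0 set to a floor of 3 reads and the 254 reads taken as exact, the fold was 16.9, or 14.6 with TMM.

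Sim1, the closest relative of Sim2, is needed for neurons of the paraventricular hypothalamus. It had 0 and 1 read in RingKO and 1 and 0 reads in WT, and 2 reads in Bcat_RingKO and 1 in Bcat. The groups overlapped and no fold is given, because every group is at or under the floor of 3 reads. Its deposited log2 fold change of 1.11 (adjusted p = 1 in the authors' deposited table) stands next to the 1.09 of an entry without reads. A difference in Sim1 between genotypes was not detectable at this depth.

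Tcf15, also called paraxis, encodes a factor of the paraxial mesoderm that is needed for somites to form an epithelium. It had 27 and 34 reads in RingKO and 2 and 1 in WT. Both RingKO libraries, at 9.27 and 12.8 RPM, lay above both WT libraries, at 0.296 and 0.159. The authors' deposited table gave a mean of 45.0 in RingKO and 1.66 in WT, a log2 fold change of 4.76 (adjusted p = 8.77e-08). The normalized ratio was 43.3 (95% counting interval 14.1 to 216), and edgeR gave a log2 fold change of 5.47 ± 0.52 (SE; adjusted p = 0.000578). The DESeq2 value was 5.61 with a wider SE of 1.05. In the beta-catenin pair Tcf15 had 65 reads in Bcat_RingKO and 0 in Bcat. By the lower 95% counting limit it was at least 3.43-fold higher in Bcat_RingKO, or at least 2.95-fold with TMM, and the fold against the floor of 3 reads was 4.33, or 3.73 with TMM.

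Twist1 encodes a factor of head mesenchyme, neural crest and limb that is known to drive epithelial cells into a mesenchymal state. It had 15 and 19 reads in RingKO, against 0 and 2 in WT. The RingKO libraries, at 5.15 and 7.17 RPM, were above the WT libraries, at 0 and 0.318. In the authors' deposited table its mean was 25.7 in RingKO and 1.38 in WT, a log2 fold change of 4.22 (adjusted p = 0.00049). The normalized ratio was 36.2 with a 95% counting interval of 9.29 to 311. DESeq2 gave a log2 fold change of 5.34 with an SE of 1.33, wider than that of edgeR. By edgeR the log2 fold change was 5.13 ± 0.75 (SE; adjusted p = 0.00338), but without WT library A, which holds no Twist1 read, it was 4.17 with an adjusted p of 0.0536 and the call was lost. With altered beta-catenin Twist1 had 54 reads in Bcat_RingKO and 0 in Bcat. By the lower 95% counting limit it was at least 2.83-fold higher in Bcat_RingKO, or at least 2.44-fold with TMM, and the fold against the floor was 3.6, or 3.1 with TMM.

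**Figure D2:**
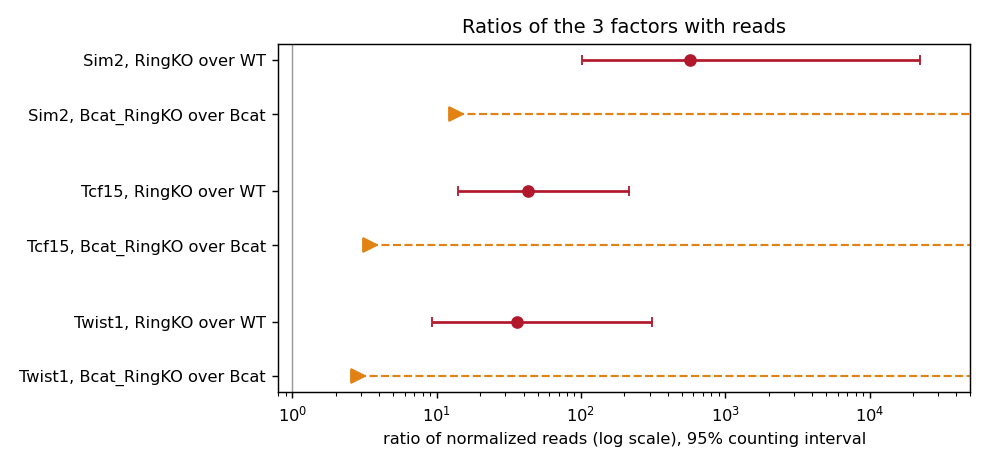
Ratios of normalized reads (x axis, log scale) of Sim2, Tcf15 and Twist1 in RingKO over WT (points with exact conditional 95% counting intervals) and in Bcat_RingKO over Bcat (arrowheads at the lower 95% limit, dashed where no upper limit exists because Bcat has 0 reads). The grey line marks a ratio of 1. The lowest limit in RingKO over WT is 9.29, for Twist1, and the arrowheads stand at 13.7, 3.43 and 2.83.

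Twist2, the paralogue of Twist1 that is known from the dermis, had 0 and 1 read in RingKO and 0 and 0 in WT, with no entry in the second table. Its deposited log2 fold change of 1.68 (adjusted p = 1 in the authors' deposited table) rests on that 1 read. Hand2, which patterns the heart, limb and sympathetic and enteric neurons, appeared only in the second table, with 1 read in Bcat_RingKO and 0 in Bcat. Hand1, a factor of the heart and the extraembryonic lineages, Tcf21, a factor of the epicardium and of visceral mesenchyme, and Msc (musculin), a factor of branchial arch muscle, had no entry. No listed entry of either table was without a read in its libraries, so a gene without reads would not be listed. Reads of Hand2 and Twist2 cannot be told apart from those of the antisense transcripts annotated over their exons, since the sources used here do not say whether strand was used in counting. The exons of Sim1, Sim2, Twist1 and Tcf15 overlap no other annotated gene.

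In the beta-catenin pair 3 of the 5 listed factors were at least 2-fold higher in Bcat_RingKO (Sim2, Tcf15 and Twist1), against 21.8% of all 17076 entries, and 2 were at least 2-fold lower, against 20.8%. The lower ones were Sim1, with a deposited log2 ratio of -1.74, and Hand2, with -1.32. Sim1 had 2 reads in Bcat_RingKO and 1 in Bcat, and Hand2 had 1 in Bcat_RingKO and 0 in Bcat. In that pair an entry without reads in either library would stand at -2.32, because 1 read was added before a shallow library was scaled. When at least 10 reads over the pair were required, 0 factors were lower and 3 were higher. The median deposited log2 ratio over all entries of the second table was 0.00, and TMM scaling shifted it by -0.22.

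In RPKM (RPM divided by the transcript length in kilobases), a level that allows genes to be set side by side, Sim2 stood at 12.4 and 11.5 in RingKO, Tcf15 at 9.46 and 13.1, and Twist1 at 3.16 and 4.40. The levels of Sim2 and Tcf15 overlapped between libraries, and both were above those of Twist1. In Bcat_RingKO the levels were 14.8 for Tcf15 (95% counting interval 11.4 to 18.9), 14.2 for Sim2 (12.5 to 16.1) and 7.42 for Twist1 (5.57 to 9.68), again with Sim2 and Tcf15 within each other's intervals and Twist1 below. The summed reads of the list came to 265 and 254 normalized reads in RingKO, against 1.92 and 2.82 in WT, and to 169 in Bcat_RingKO, against 2.24 in Bcat. The 3 factors made up most of these sums except in Bcat, where the sum was 1 read of Sim1. The authors scaled the tables separately, and levels in Bcat_RingKO were not tested against those in RingKO.

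The gene starts of the Twist pair are shown because Twist1 rose and Twist2 had 1 read, and that of Sim1 because its relative Sim2 rose. Each is the RefSeq window from 250 bases before to 50 bases after the annotated start, in build GRCm38.p6, read 5′ to 3′ on the plus strand, with each CG dinucleotide in capitals.
Twist1, chr12:33957421-33957720: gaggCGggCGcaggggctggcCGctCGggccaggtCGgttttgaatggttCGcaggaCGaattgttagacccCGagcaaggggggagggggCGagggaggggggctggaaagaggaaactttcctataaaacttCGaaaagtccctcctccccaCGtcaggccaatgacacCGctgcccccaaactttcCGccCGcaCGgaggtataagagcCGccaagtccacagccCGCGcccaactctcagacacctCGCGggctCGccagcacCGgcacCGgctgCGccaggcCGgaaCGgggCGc
Twist2, chr1:91801211-91801510: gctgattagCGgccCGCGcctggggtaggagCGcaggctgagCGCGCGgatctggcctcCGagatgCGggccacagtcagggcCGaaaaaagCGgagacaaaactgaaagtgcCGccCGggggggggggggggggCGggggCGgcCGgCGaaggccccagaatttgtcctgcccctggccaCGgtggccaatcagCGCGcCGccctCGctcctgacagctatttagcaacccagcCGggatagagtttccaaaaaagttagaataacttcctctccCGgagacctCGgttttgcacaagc
Sim1, chr10:50895401-50895700: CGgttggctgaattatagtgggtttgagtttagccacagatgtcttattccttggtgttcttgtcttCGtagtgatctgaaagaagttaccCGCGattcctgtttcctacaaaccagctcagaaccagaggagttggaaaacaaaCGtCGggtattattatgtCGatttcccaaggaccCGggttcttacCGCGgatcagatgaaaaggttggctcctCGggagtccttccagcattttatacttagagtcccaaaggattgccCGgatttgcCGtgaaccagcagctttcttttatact
The Twist1 window holds 27 CG dinucleotides at 66.0% G and C, and the Twist2 window 25 at 64.7%. Of all 32817 windows of 26994 genes, 84.5% hold fewer than Twist1 and 81.6% fewer than Twist2, and the median is 7. Any part of CG content in the reads of these genes was not tested, and Twist2 rests on 1 read. No window was on hand for Sim2 and Tcf15, which rose, or for Hand1 and Msc. The Sim1 window holds 13 CG dinucleotides at 46.0% G and C, more than in 62.1% of windows. Windows were also on hand for Hand2, with 17 CG dinucleotides, and for Tcf21, with 8, and 5 of the 9 factors were matched in all. The E-box, spelled CANNTG and its own reverse complement, occurs 2 times in the Sim1 window, 2 times in that of Hand2 and 0 times in those of Twist1, Twist2 and Tcf21, against at least 1 match in 72.3% of all windows. A match is a run of letters, not a site.

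**Figure D3:**
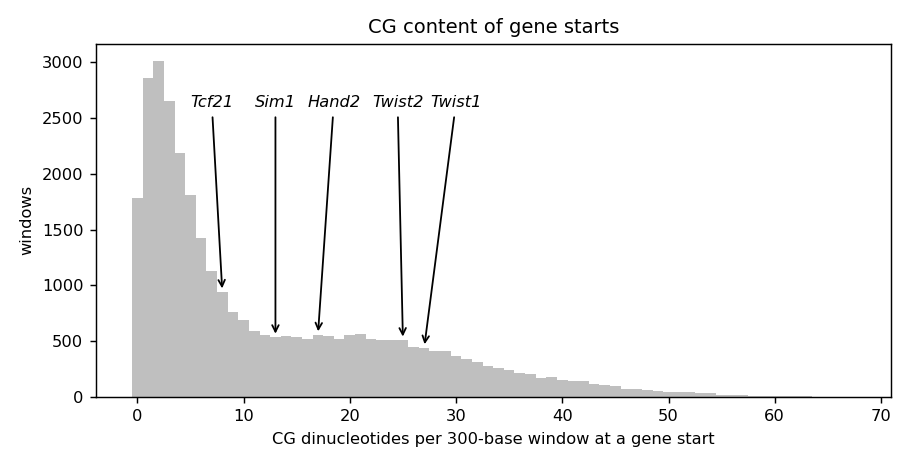
Number of RefSeq gene start windows of 300 bases (y axis) by the number of CG dinucleotides they hold (x axis). Arrows mark the windows of Tcf21 (8), Sim1 (13), Hand2 (17), Twist2 (25) and Twist1 (27). The lower quartile of all windows is 3, the median 7 and the upper quartile 20, so both Twist genes lie above the upper quartile.

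The partners of these factors were read next. Of the E proteins, Tcf3 had no entry. Tcf4 had 1 and 1 read in RingKO and 8 and 8 in WT, and Tcf12 had 0 and 1 in RingKO and 3 and 3 in WT. Among the 2 E proteins of the first table, 0 passed the authors' test, 0 had an unadjusted p under 0.05, and DESeq2 called 0. The read filter of edgeR and limma-trend left both out, so these tools did not test them. Both are symbols with several entries, and entries of such symbols had a median of 11 WT reads, against 116 for symbols with 1 entry. How reads shared by several entries were counted is not given in the sources used here, so reads of 1 entry may not measure the whole gene.

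Of the 4 Id genes, whose proteins lack the basic region and tie up E proteins, 1 rose and 0 fell. Id3 rose, with 626 and 722 reads in RingKO and 792 and 779 in WT, or 215 and 272 RPM in RingKO and 117 and 124 in WT (edgeR log2 fold change 1.06 ± 0.15). The Id3 call was lost without WT library A (adjusted p = 0.0812, edgeR) and without WT library B (adjusted p = 0.0546, edgeR). Deposited log2 fold changes were 0.39 for Id1, 0.06 for Id2 and -0.74 for Id4, none past the threshold. In the beta-catenin pair the Id3 ratio was 1.55 (1.26 to 1.92), that of Id1 was 1.62 (1.29 to 2.06), and that of Id2 1.49 (1.19 to 1.87).

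Sim proteins pair with Arnt and Arnt2, named here for that role. Arnt2 had 37 and 27 reads in RingKO and 51 and 44 in WT, a deposited log2 fold change of 0.54 that did not pass. Its ratio in the beta-catenin pair was 5.87 (95% counting interval 2.64 to 16.2), from 176 reads in Bcat_RingKO and 6 in Bcat. Arnt had 14 and 11 reads in RingKO, 26 and 17 in WT, 6 in Bcat_RingKO and 1 in Bcat, with a deposited log2 fold change of 0.36. Both partners thus had reads in the libraries where Sim2 had reads.

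Over 7 lists of other bHLH genes (73 genes, 55 of them in the first table) 5 rose, against 3.14% of all entries, and 3 fell, against 1.76% of all entries, with a median deposited log2 fold change of 0.36. Of 10 related mesodermal, blood and neural factors in the table, 2 rose and 0 fell: Tcf24, a little-studied bHLH gene, and Mesp2, which sets somite boundaries. Tcf24 had 38 and 29 reads in RingKO, 6 and 5 in WT, 112 in Bcat_RingKO and 4 in Bcat, and Mesp2 had 33 and 20 in RingKO, 12 and 15 in WT, 35 in Bcat_RingKO and 2 in Bcat. Both had 5 reads or more in each WT library, where Sim2, Tcf15 and Twist1 had 2 or fewer. Their edgeR log2 fold changes were 3.83 ± 0.40 for Tcf24 and 2.22 ± 0.40 for Mesp2. The 4 myogenic bHLH genes had no entry in the first table, and in the second Myog had 1 read in Bcat_RingKO.

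Of 15 proneural and secretory factors 0 rose and 3 fell in the authors' test, 4 had an unadjusted p under 0.05, and edgeR, DESeq2 and limma-trend each called 1 (Bhlha15) as higher and 3 as lower. The genes that fell were Neurog3, which starts hormone cell differentiation (8 and 8 reads in RingKO, 177 and 189 in WT), its target Neurod1 (4 and 7 in RingKO, 75 and 92 in WT) and the stem cell factor Ascl2 (206 and 174 in RingKO, 1049 and 800 in WT). Bhlha15, also called Mist1, a factor of secretory cells, had 199 and 332 reads in RingKO, 206 and 181 in WT, 573 in Bcat_RingKO and 51 in Bcat. Both RingKO libraries, at 68.4 and 125 RPM, were above both WT libraries, at 30.5 and 28.8. Its deposited log2 fold change was 1.55 (adjusted p = 0.144 in the authors' deposited table), against 1.74 ± 0.26 by edgeR (SE; adjusted p = 0.00373). Of 14 bHLH-PAS factors other than the Sim genes 2 rose and 0 fell. Epas1, a hypoxia factor, had an edgeR log2 fold change of 1.32 ± 0.16, and Npas2, a clock factor, 0.98 ± 0.15. Of 10 HES and HEY factors, mostly repressors that act under Notch, 0 passed the authors' test, 1 (Hes7) had an unadjusted p under 0.05, edgeR and limma-trend each called Hes7 as higher and DESeq2 called 0.

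Several of these calls moved with the tool and the libraries. On the recovered reads edgeR called 8 of the other bHLH genes as higher, adding Bhlha15, Hes7 and Scx, and 3 as lower. Hes7 and Scx did not pass by DESeq2 (adjusted p = 0.117 and 0.126) or by edgeR without either WT library. Without WT library A edgeR called 3 as higher and 2 as lower, with an adjusted p of 0.119 for Mesp2, 0.0855 for Npas2 and 0.0729 for Ascl2. Without WT library B it called 3 as higher and 2 as lower, with 0.0671 for Mesp2, 0.0549 for Npas2 and 0.0536 for Neurod1. Without RingKO library A it called 10 as higher, and without RingKO library B 8. Tcf24, Epas1 and Neurog3 passed in the authors' test and under each other tool and each omission. Bhlha15 passed under edgeR, DESeq2, limma-trend and each omission, with an adjusted p of at most 0.0216, and missed only the authors' test.

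**Figure D4:**
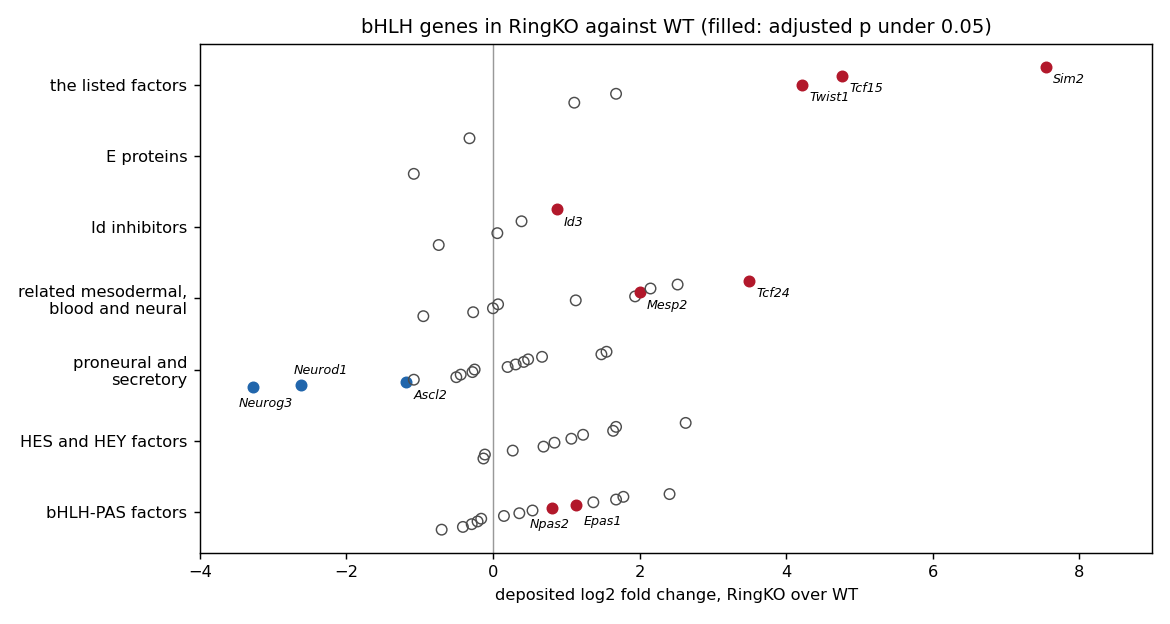
Deposited log2 fold change in RingKO over WT (x axis) of each bHLH gene with an entry in the first table, by list (y axis). Filled points passed an adjusted p under 0.05 (red higher, blue lower) and are named, and open points did not pass. Sim2 (7.55), Tcf15 (4.76) and Twist1 (4.22) lie to the right of every gene of the other lists, of which Tcf24 (3.50) is the highest called, and an entry without reads would stand at 1.09.

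Genes tied to the listed factors by role were counted as well. Of 8 genes of mesenchymal transition in the first table, the programme for which Twist1 is known, 0 rose and 1 fell. Vim, which encodes the filament protein vimentin, fell, with 31 and 27 reads in RingKO and 244 and 221 in WT, a ratio of 0.266 (0.199 to 0.350). The others, among them Snai1 with 18 and 15 reads in RingKO and 26 and 35 in WT, did not pass. Of 8 factors that act beside the listed ones in development (such as Gata4 with the Hand proteins in the heart, and Pax3 in the somite), 0 passed the authors' test. Of these, 2 (Gata4 and Pax3) had an unadjusted p under 0.05, and DESeq2 called 1 (Pax3) as higher. Both edgeR and limma-trend called 0, but their read filter had left out Pax3. Pax3, named here after its values were seen, had 3 and 11 reads in RingKO, 0 and 0 in WT, 20 in Bcat_RingKO and 0 in Bcat.

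Several of the listed factors are made by mesenchymal, muscle or nerve cells of the gut wall, so markers of these cells were read in the same libraries. Among 7 fibroblast markers of the first table, 0 passed the authors' test, 0 had an unadjusted p under 0.05, and edgeR, DESeq2 and limma-trend each called 0. The same counts held for 5 smooth muscle, 5 endothelial, 5 enteric neuron and glia and 6 blood cell markers. The edgeR and limma-trend counts say little here, because their read filter left out most of these markers. Those tools tested only Col1a1 and Col3a1 of the fibroblast, Tagln of the smooth muscle and Esam of the endothelial markers. Of the enteric and blood cell markers they tested only Ret and Lyz2. Fibroblast markers summed to 37.0 and 21.6 normalized reads in RingKO, 33.8 and 18.3 in WT, 4.91 in Bcat_RingKO and 103 in Bcat. The fibroblast genes Dcn and Lum were at 0 reads in both RingKO libraries and at 0 and 1 in WT, and Pdgfrb had no entry. Col1a1 had 13 and 10 reads in RingKO and 18 and 5 in WT, a normalized ratio of 2.13 (1.14 to 3.97). Of the 7 fibroblast markers, 1 (Col1a1) was higher in both RingKO libraries than in both WT libraries, and 2 were lower. Smooth muscle markers summed to 19.9 and 22.9 in RingKO, 18.6 and 25.3 in WT, 17.0 in Bcat_RingKO and 26.8 in Bcat. Fibroblast and smooth muscle sums thus overlapped between RingKO and WT and were lower in Bcat_RingKO than in Bcat.

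Endothelial markers, nearly all of them reads of Esam, summed to 127 and 106 in RingKO, 133 and 140 in WT, 100 in Bcat_RingKO and 31.3 in Bcat. Blood cell markers summed to 49.7 and 70.3 in RingKO, 43.5 and 33.8 in WT, 61.7 in Bcat_RingKO and 89.4 in Bcat. Enteric neuron and glia markers summed to 27.0 and 35.9 in RingKO, 10.9 and 24.7 in WT, 22.8 in Bcat_RingKO and 13.4 in Bcat, with Elavl4 absent from the tables and Sox10 listed only in the second. Blood and enteric sums were higher in both RingKO libraries than in both WT libraries, and their part in the rise of Sim2, Tcf15 and Twist1 was not tested. Summed Lgr5 stem cell markers were lower in RingKO library B than in A. The listed factors summed to 265 normalized reads in RingKO library A and 254 in B. Most of these were Sim2 (205 in A and 175 in B), while Tcf15 (38.4 and 48.8) and Twist1 (21.3 and 27.3) were higher in B. Whether the factors follow the stem cell markers was not tested.

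**Figure D5:**
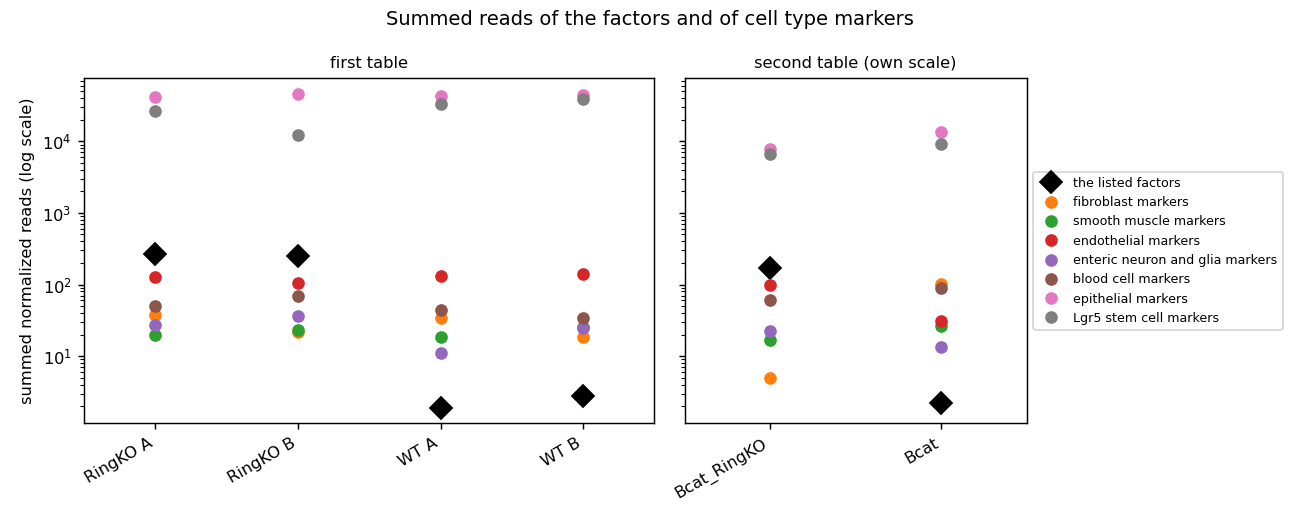
Summed normalized reads (y axis, log scale) of the listed bHLH factors (black diamonds) and of 7 marker lists (circles) in each library. The left panel holds RingKO and WT, and the right panel holds Bcat_RingKO and Bcat on the scale of their own table. The factors stand at 265 and 254 in RingKO, against 1.92 and 2.82 in WT, while fibroblast and smooth muscle markers overlap between these groups and blood cell and enteric markers are higher in both RingKO libraries, at 49.7 and 70.3 against 43.5 and 33.8 in WT for blood, and 27.0 and 35.9 against 10.9 and 24.7 in WT for enteric.

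Genes next to the listed factors on the chromosome were read to see whether reads rose around them. Of the 18 nearest protein-coding neighbours, 1 on each side, 11 were in the first table. None of the 11 passed the authors' test, 1 (Trpa1) had an unadjusted p under 0.05, edgeR and limma-trend each called Trpa1 as lower and DESeq2 called 0. Deposited log2 fold changes ran from -2.14 (Trpa1, beside Msc) to 1.09 (Asb1, beside Twist2, on 4 reads in RingKO and 4 in WT). Hlcs, 1.85 kb from Sim2, had 70 and 83 reads in RingKO and 216 and 215 in WT, a log2 fold change of -0.39. Srxn1 and Csnk2a1, on either side of Tcf15, stood at 0.05 and -0.27. Neither neighbour of Twist1, Ferd3l and Hdac9, was in the first table.

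The genes whose levels were most like those of Sim2, Tcf15 and Twist1 were found by the Euclidean distance in log2(RPM + 1) over the 6 libraries, among 14984 genes. For Sim2 they were Sox3, at a distance of 0.451, and En2, at 0.535. Sox3 had 184 and 109 reads in RingKO, 0 and 2 in WT, 228 in Bcat_RingKO and 0 in Bcat, and En2 had 113 and 97 in RingKO, 0 and 0 in WT, 230 in Bcat_RingKO and 0 in Bcat. For Tcf15 they were Bmp4 (0.399) and Dmrt1 (0.507), and Bmp4 had 34 and 36 reads in RingKO, 2 and 1 in WT, 78 in Bcat_RingKO and 0 in Bcat. For Twist1 they were Hoxd10 (0.401) and Raet1e (0.452), and Hoxd10 had 15 and 19 reads in RingKO, 0 and 0 in WT, 56 in Bcat_RingKO and 0 in Bcat. Each of these 6 genes was at 2 reads or fewer in every WT library and at 0 in Bcat, which follows from their choice by likeness over the same libraries.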

How the data were processed

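The data are 6 messenger RNA libraries of sorted cells, prepared with the TruSeq RNA v2 kit, per the labels' protocols. TopHat, DESeq and mouse build mm9 are named, without their roles, in the submitters' processing notes. No read counter, annotation or strand setting is given in the sources used here. The authors deposited 2 tables with 1 line per RefSeq entry (18376 and 17076). Per the file headers they hold a normalized coverage signal, as group means for RingKO and WT and as single values for Bcat_RingKO and Bcat, with the fold (ratio), its log2 value and, for RingKO against WT, p-values and adjusted p-values deposited by the authors. No column belonged to a sample outside the labels.

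The deposited signal equals (reads + 1) over a size factor of the library, from the values themselves. Whole reads of single libraries were recovered from the group means (100% of simulated means came back right). In WT 14 entries and in RingKO 3 had several solutions, none of them a listed factor. Size factors were 0.704 and 0.696 in RingKO, 1.56 and 1.42 in WT, 2.24 in Bcat_RingKO and 0.447 in Bcat.

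RingKO was tested against WT by the authors' deposited adjusted p under 0.05, which was planned for a table of group means. That deposited adjusted p was taken as given. Alternatives on the recovered reads were the edgeR 4.0.16 quasi-likelihood test (TMM, filterByExpr), edgeR with size factors or no filter, the DESeq2 1.42.0 Wald test, limma 3.58.1 on log2(normalized reads + 1), and edgeR without each library. The SE of an edgeR log2 fold change is that change divided by the square root of the F statistic. It is an approximation, and for Sim2, Tcf15 and Twist1, with few WT reads, it was narrower than the DESeq2 SE. Genes with few reads were left out by filterByExpr before edgeR and limma-trend were run, so these tools could not call them. The Benjamini-Hochberg adjustment of both tools ran over the entries that were left, and over all entries for edgeR with no filter. DESeq2 adjusted over the entries that its own filter kept. Of 55 other bHLH genes, edgeR with TMM and limma-trend tested 29 and DESeq2 36. The scripts were tested on simulated data. Ratios carry exact conditional binomial (Clopper-Pearson) 95% intervals, and single libraries exact Poisson intervals. PCR reads are not independent molecules. A fold against a group at 0 uses a floor of 3 reads, or 6.71 normalized reads in Bcat.

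The listed factors and all gene lists were chosen with earlier results of these data known. The rule for names took the listed factors, Ring1, Rnf2, Ctnnb1, the E proteins and Id genes, up to 4 called members per bHLH list by smallest adjusted p, and the 2 genes nearest in level to each factor with at least 30 reads. Other names are given for their role or position, or because their call differed between tools. Of the accessions 98.6% matched RefSeq and 97.8% a GENCODE transcript length. The reference is GRCm38 and the files mm9, so it served for names, neighbours, lengths and gene start windows.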

Additional observations from a re-analysis of the deposited data

Results flagged for a closer look

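Vim went in opposite directions in the comparisons with and without altered beta-catenin. In the beta-catenin pair it had 608 reads in Bcat_RingKO and 60 in Bcat, a normalized ratio of 2.03 (95% counting interval 1.55 to 2.69), or 1.75 (1.34 to 2.32) after TMM scaling. In RingKO against WT its ratio was 0.266. The difference between these effects was not tested, and the beta-catenin pair has 1 library per group.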

How the results depend on the processing

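The counts of listed factors that rose (3) and fell (0) were the same with edgeR under either scaling or without a filter, DESeq2, limma-trend and any entry of a symbol. No setting could have detected a fall, since each listed factor had 3 reads or fewer over both WT libraries. Leaving out each library gave 2 to 3 that rose and 0 that fell. Under the 9 alternatives the log2 fold change ran from 7.19 to 10.64 for Sim2, 4.49 to 5.88 for Tcf15 and 4.02 to 7.69 for Twist1, with adjusted p up to 0.000251, 0.00532 and 0.0536. The Twist1 call was lost without WT library A (log2 fold change 4.17), where the lone WT library is assumed to vary like the other group. The other bHLH genes called as higher numbered 5 in the authors' test, 8 by edgeR with TMM, size factors or no filter, 8 by limma-trend and 6 by DESeq2, and 3 to 10 on leaving out each library. Those called as lower numbered 3 throughout, and 2 to 3 on leaving out each library. The cause was not tested.

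In the beta-catenin pair 3 factors were higher under each alternative. The 2 that were lower came to 2 under TMM and total-read scaling and to 0 under a 4-fold threshold, a minimum of 10 reads or a 95% interval past 2-fold, which removes genes at 2 reads or fewer. The Bcat library is the shallowest, with Bcat_RingKO 4.85 times as deep, and this sets how far a factor at 0 reads can be bounded.

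No paired analysis was possible because the first table holds group means, and the recovered libraries cannot be matched to the replicate numbers. A fit with a replicate block was neither planned nor run.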
